A study of Mus musculus with 6 samples.

Results

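The Sox genes other than Sox9 were followed through 3 cell populations of the mouse hair follicle: Sox2, Sox4, Sox5, Sox6, Sox7, Sox11, Sox12, Sox13, Sox18 and Sox21. They were chosen by name, through every probe set that the array's annotation pairs with one of these symbols, and make up 10 of the 18193 genes measured. Quiescent hair follicle stem cells (qHF-SC) were sorted with integrin α6 and CD34 at postnatal days 52 to 60. The activated stem cells (aHF-SC) came from postnatal days 28 to 30, with GFP, integrin α6 and CD34 as the sorting markers. Transient-amplifying matrix cells (HF-TAC), the dividing progenitors at the base of the growing follicle, were sorted with GFP, integrin α6 and ephrinB1, also at postnatal days 28 to 30. All cells came from the back skin of untreated female CD-1 mice, and each population was measured on 2 arrays. The labels do not say what carries the GFP, which side of each marker was kept, or whether the 2 arrays of a group hold separate animals. The tests below therefore reflect only how far the arrays of a group differ, and that spread may be technical. Cell state, age and sorting markers all differ between qHF-SC and the 2 younger groups, and sorting markers differ between aHF-SC and HF-TAC as well, so these cannot be told apart.

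Sox proteins bind DNA through an HMG box that they share with the testis-determining factor Sry, bend it, and act with partner proteins that set which genes respond. The family is split into subgroups by sequence. SoxB1 factors such as Sox2 act in pluripotent and neural cells, and Sox2 also marks the dermal papilla of some hair types. Sox21, of SoxB2, acts in the hair shaft cuticle, and mice without it lose their hair in cycles. The SoxC factors Sox4, Sox11 and Sox12 act in progenitors of many tissues. The SoxD factors Sox5, Sox6 and Sox13 have no activation domain of their own and act in cartilage, melanocytes and T cells. The SoxF factors Sox7 and Sox18 are known from blood vessels, and Sox18 also from hair development.

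Of the 10 genes, 4 changed between populations: Sox4, Sox7, Sox13 and Sox21. The 250 bases before the transcription start are shown for the 3 of these that have an entry in the RefSeq promoter table (build GRCm38.p6), because they are the regulatory sequence next to the genes that moved. Capitals mark matches, on either strand, to the Lef/Tcf core CTTTG and to the CCAAT box; the Sox core ACAAT and the TATA box TATAAA were searched as well. The Sox4 window is chr13:28953700-28953949, the Sox13 window chr1:133424213-133424462 and the Sox21 window chr14:118237031-118237280. All 3 genes lie on the minus strand, and each run is printed on the gene's strand, 5′ to 3′, ending at the base before the start.
Sox4: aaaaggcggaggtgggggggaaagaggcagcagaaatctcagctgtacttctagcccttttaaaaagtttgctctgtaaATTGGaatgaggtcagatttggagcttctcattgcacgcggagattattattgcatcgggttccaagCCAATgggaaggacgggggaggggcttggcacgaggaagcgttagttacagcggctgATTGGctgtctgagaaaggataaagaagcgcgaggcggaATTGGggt
Sox13: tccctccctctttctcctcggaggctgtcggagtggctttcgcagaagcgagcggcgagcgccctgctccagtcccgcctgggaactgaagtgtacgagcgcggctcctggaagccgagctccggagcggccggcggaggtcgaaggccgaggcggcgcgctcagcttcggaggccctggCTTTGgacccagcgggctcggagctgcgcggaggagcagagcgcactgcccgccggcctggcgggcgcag
Sox21: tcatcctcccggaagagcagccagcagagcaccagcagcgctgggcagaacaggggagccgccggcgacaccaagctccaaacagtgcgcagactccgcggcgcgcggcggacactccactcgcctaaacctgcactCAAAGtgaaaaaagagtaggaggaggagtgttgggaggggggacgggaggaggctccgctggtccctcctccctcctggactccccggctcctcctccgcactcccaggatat

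The Sox4 window held 4 CCAAT matches, 1 on the gene's strand at 104 to 100 bases before the start and 3 on the other strand at 171 to 167, 47 to 43 and 8 to 4 bases before it. CCAAT was present in 33.8% of the 32851 windows of the same length in the table, and 4 or more matches were present in 0.84%. The cut of 4 is the count seen in the Sox4 window itself, and no such share was taken for the other motifs. The Sox13 window held 1 Lef/Tcf match on the gene's strand, 70 to 66 bases before the start. The Sox21 window held 1 Lef/Tcf match on the other strand, 113 to 109 bases before the start. That core was present in 48.6% of windows. The Sox core, present in 27.7% of windows, and TATAAA, present in 12.4%, had no match in these 3 windows. The share of G and C was 50.8% for Sox4, 65.2% for Sox21 and 72.4% for Sox13, against a median of 52.4% over all windows. Each match is a description of these letters, and binding was not measured. The other member that passed, Sox7, is named only.

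Values are deposited intensities on a linear scale. A group mean of at most 21.7 was read as background, the highest median that a list of 19 measured genes of other organs reached on any array. It is a rough mark: on single arrays Ins2, an insulin gene of that list, read up to 117, and Sry, which lies on the Y chromosome, read 52.6 to 63.5 in these female mice. An intensity of this order therefore need not mean that a transcript was present. Sox2, Sox11 and Sox18 lay at background in all 3 groups. Replicate arrays correlated across genes at r = 0.9885 to 0.9915, and 202 to 454 genes lay more than 2-fold apart between the arrays of a group.

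**Figure D1:**
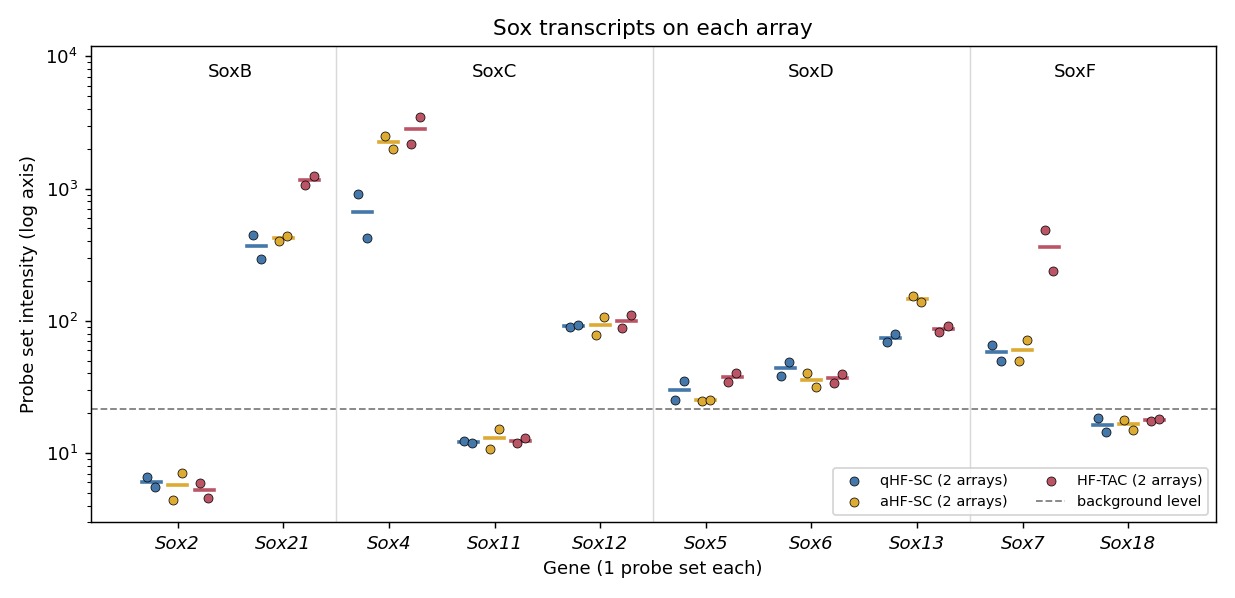
Intensity of each of the 10 Sox genes on every array, on a log axis, ordered by subgroup, with the background level of 21.7 as a line. Sox7 and Sox21 stand higher on both HF-TAC arrays than on the 4 stem cell arrays, Sox4 is lowest on both qHF-SC arrays, and Sox13 is highest on both aHF-SC arrays.

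Between aHF-SC and qHF-SC, 2 of the 10 genes were higher, Sox4 and Sox13, and 0 were lower, by limma with Benjamini-Hochberg adjustment over all genes at a threshold of 0.05. Both were also the only members with an unadjusted p under 0.05. Over all genes, 6.28% passed in this comparison, 3.07% higher and 3.21% lower. Between HF-TAC and aHF-SC, 2 were higher, Sox7 and Sox21, and 1 was lower, Sox13, where 17.5% of all genes passed, 8.97% higher and 8.57% lower. Between HF-TAC and qHF-SC, 3 were higher, Sox4, Sox7 and Sox21, and 0 were lower, where 26.3% of all genes passed, 13.4% higher and 12.9% lower. The members' median difference on the log2 scale was 0.04, 0.12 and 0.18 in the 3 comparisons, against 0.0048, -0.01 and -0.01 over all genes. The comparisons share arrays, so the counts are not independent of each other.

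**Figure D2:**
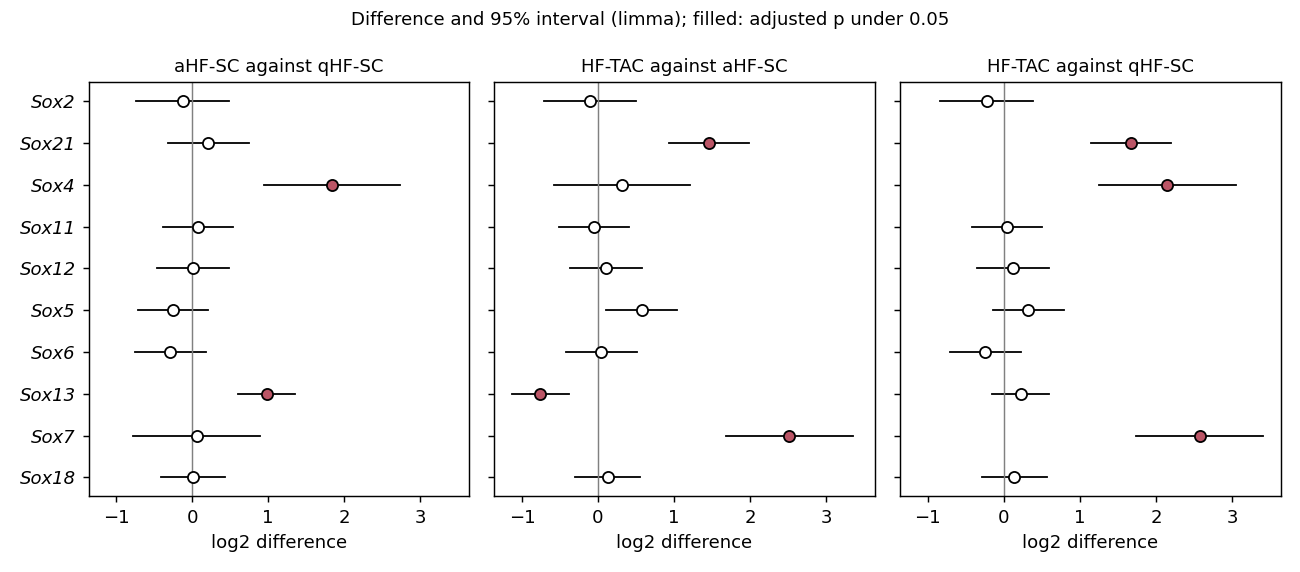
Difference of each Sox gene in the 3 comparisons on the log2 scale, with its 95% interval from limma, not adjusted for the number of genes. Filled points mark an adjusted p under 0.05: Sox4 and Sox13 in aHF-SC against qHF-SC, Sox7, Sox13 and Sox21 in HF-TAC against aHF-SC, and Sox4, Sox7 and Sox21 in HF-TAC against qHF-SC.

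Among the SoxB genes, Sox21 was high in the matrix cells. The intensities were 448 and 292 on the qHF-SC arrays, 401 and 439 on the aHF-SC arrays, and 1068 and 1246 on the HF-TAC arrays. The 2 stem cell groups overlapped, and both HF-TAC arrays lay above all 4 stem cell arrays. The means were 370 ± 110 (SD, n = 2), 420 ± 26.8 (SD, n = 2) and 1157 ± 126 (SD, n = 2). Sox21 was 2.75-fold higher in HF-TAC than in aHF-SC (log2 1.46 ± 0.22 SE, limma adjusted p = 0.00492) and 3.19-fold higher than in qHF-SC (log2 1.67 ± 0.22 SE, limma adjusted p = 0.00163). Between the stem cell groups it did not pass (log2 0.21, 95% interval -0.31 to 0.74, limma adjusted p = 0.696). In bulk samples such as these, fewer cells of a type and less RNA per cell cannot be told apart.

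A second Sox21 probe set, 1451835_at, gave the same order. It read 104 and 76.7 in qHF-SC, 100 and 159 in aHF-SC, and 270 and 465 in HF-TAC, with log2 differences of 1.49 against aHF-SC (limma adjusted p = 0.0222, over all probe sets) and 1.99 against qHF-SC (limma adjusted p = 0.00382). Here and below, tests of single probe sets were adjusted over 45037 probe sets, of which 5.02%, 11.5% and 20.1% passed in aHF-SC against qHF-SC, HF-TAC against aHF-SC and HF-TAC against qHF-SC. Sox2, by its 1 probe set, read 6.64 and 5.53 in qHF-SC, 4.38 and 7.04 in aHF-SC, and 5.91 and 4.54 in HF-TAC. All of these are at background and overlap, so the arrays gave no measured Sox2 level in any of the 3 populations.

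Of the SoxC genes, Sox4 was higher in the activated stem cells and in the matrix cells than in the quiescent stem cells. It read 918 and 424 in qHF-SC, 2505 and 1977 in aHF-SC, and 2187 and 3504 in HF-TAC. The qHF-SC arrays lay below the other 4, while aHF-SC and HF-TAC overlapped. The means were 671 ± 349 (SD, n = 2), 2241 ± 373 (SD, n = 2) and 2846 ± 931 (SD, n = 2). Sox4 was 3.57-fold higher in aHF-SC than in qHF-SC (log2 1.83 ± 0.38 SE, limma adjusted p = 0.0373) and 4.44-fold higher in HF-TAC than in qHF-SC (log2 2.15 ± 0.38 SE, limma adjusted p = 0.00564). Between HF-TAC and aHF-SC it did not pass (log2 0.31, 95% interval -0.58 to 1.21, limma adjusted p = 0.693), an interval that holds differences of more than 2-fold.

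The 2 qHF-SC arrays differed by more than 2-fold for Sox4, and the rise in aHF-SC leaned on them. Without qHF-SC replicate 2, the lower array, it was log2 1.28 (limma adjusted p = 0.162), and without qHF-SC replicate 1 it was log2 2.39 and still passed. The call was also lost without aHF-SC replicate 1 (log2 1.66, limma adjusted p = 0.165) and without aHF-SC replicate 2 (log2 2.01, limma adjusted p = 0.104). The difference between HF-TAC and qHF-SC passed with any 1 array left out, at log2 1.59 to 2.71. Averaged over all 8 Sox4 probe sets the differences were smaller, log2 1.08 in aHF-SC (limma adjusted p = 0.0253) and 1.27 in HF-TAC (limma adjusted p = 0.00323), both against qHF-SC.

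Of the 8 Sox4 probe sets, 5 rose in aHF-SC against qHF-SC, by log2 1.52 to 1.83 (limma adjusted p from 0.0142 to 0.0361). The same 5 rose in HF-TAC against qHF-SC, by log2 1.76 to 2.33, and 0 of 8 passed between HF-TAC and aHF-SC. Probe set 1455867_at did not pass, with log2 0.27 in aHF-SC and 0.54 in HF-TAC against qHF-SC. The other probe sets, 1458332_x_at and 1443778_at, read 5.93 to 9.85 and lay at background in every group.

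Sox12 and Sox11 did not pass in any comparison. Sox12 read 89.6 and 92.3 in qHF-SC, 78.6 and 108 in aHF-SC, and 88.9 and 110 in HF-TAC, so all 3 groups overlapped. All of these lay below the highest Ins2 value, so they need not mean that the transcript was present. Its log2 differences were 0.02 in aHF-SC against qHF-SC (95% interval -0.46 to 0.49), 0.11 in HF-TAC against aHF-SC (-0.37 to 0.58) and 0.12 in HF-TAC against qHF-SC (-0.35 to 0.60).  None of its 3 probe sets passed. Sox11 read 4.61 to 15.3 over its 6 probe sets and all arrays, so all of them lay at background.

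**Figure D3:**
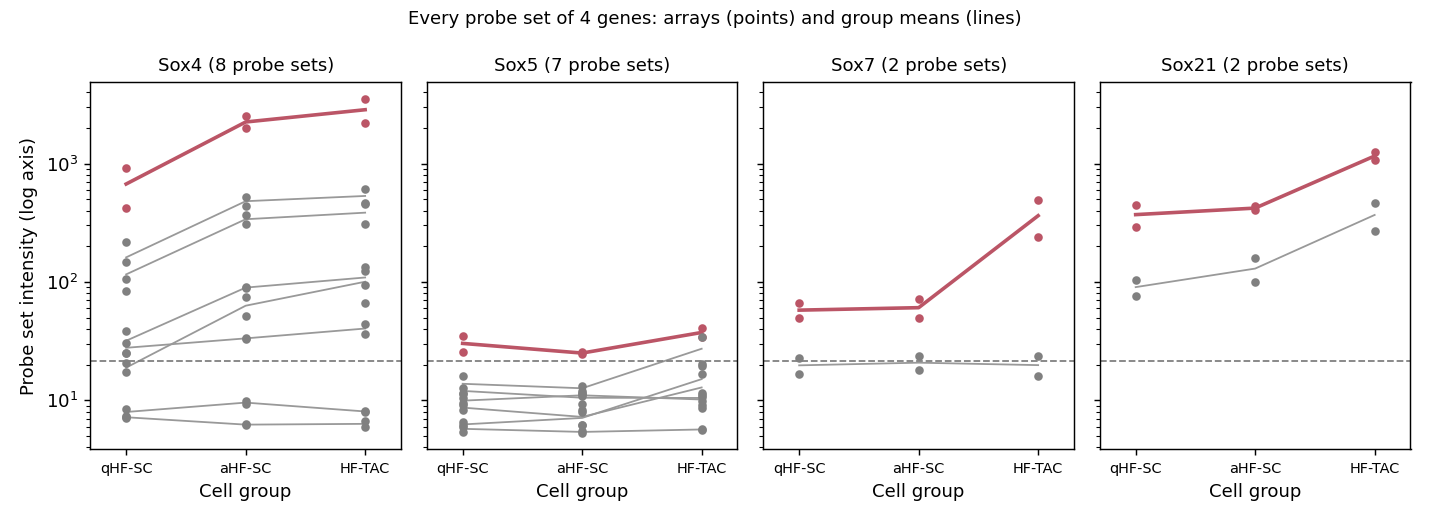
Intensity of every probe set of Sox4, Sox5, Sox7 and Sox21 on a log axis, with arrays as points, group means as lines, the probe set used for the gene in red, and background as a dashed line. Of the 8 Sox4 probe sets, 5 passed as higher in aHF-SC and in HF-TAC than in qHF-SC, both Sox21 probe sets are highest in HF-TAC, and only 1 of 2 Sox7 probe sets is higher there.

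Among the SoxD genes, Sox13 was highest in the activated stem cells, a pattern of calls that no other member had. It read 69.8 and 79.6 in qHF-SC, 155 and 140 in aHF-SC, and 82.2 and 91.7 in HF-TAC. No 2 groups overlapped, and the means were 74.7 ± 6.97 (SD, n = 2), 147 ± 10.6 (SD, n = 2) and 87.0 ± 6.73 (SD, n = 2). Sox13 was 1.97-fold higher in aHF-SC than in qHF-SC (log2 0.98 ± 0.16 SE, limma adjusted p = 0.0174). In HF-TAC it was 1.69-fold lower than in aHF-SC (log2 -0.76 ± 0.16 SE, limma adjusted p = 0.0170). HF-TAC and qHF-SC did not differ past the threshold (log2 0.22, 95% interval -0.15 to 0.59, limma adjusted p = 0.393).

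The Sox13 calls were lost in most fits with 1 array fewer, with small changes in size; only leaving out HF-TAC replicate 2 kept the fall in HF-TAC past the threshold among the arrays of its 2 groups. The rise in aHF-SC was log2 0.89 and 1.08 without qHF-SC replicate 1 and 2, and 0.91 and 1.05 without aHF-SC replicate 1 and 2, with limma adjusted p of 0.0847, 0.0852, 0.0934 and 0.0585. The fall in HF-TAC was log2 -0.69 and -0.83 without aHF-SC replicate 1 and 2 (limma adjusted p = 0.0848 and 0.0577) and -0.68 without HF-TAC replicate 1 (limma adjusted p = 0.0683). Sox13 has 1 probe set, 1450191_a_at, so no other probe set bears on it. Its qHF-SC and HF-TAC levels lay within the range that Ins2 reached, and its aHF-SC levels above it.

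Sox5 and Sox6 did not pass in any comparison by the probe set used for the gene. On that probe set both read below the lowest Sry value on every array, so a transcript need not have been present. Sox5 read 25.4 and 35.2 in qHF-SC, 24.8 and 25.4 in aHF-SC, and 34.4 and 40.5 in HF-TAC. The HF-TAC arrays lay above the aHF-SC arrays and overlapped the qHF-SC ones, and the log2 difference between HF-TAC and aHF-SC was 0.57 ± 0.20 SE (limma adjusted p = 0.0951). A dimmer Sox5 probe set, 1423500_a_at, rose in HF-TAC. It read 11.6 and 16.0 in qHF-SC, 12.0 and 13.3 in aHF-SC, and 20.2 and 34.3 in HF-TAC, a log2 difference of 1.06 against aHF-SC (limma adjusted p = 0.0434) and 0.95 against qHF-SC (limma adjusted p = 0.0424). Both stem cell groups lay at background there, so the size of the change is uncertain.

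In all, 1 of 7 Sox5 probe sets passed between HF-TAC and aHF-SC and 2 of 7 between HF-TAC and qHF-SC. The other one, 1455535_at, read 10.7 and 19.5 in HF-TAC and at most 8.01 on the stem cell arrays, with every group at background. Sox6 read 38.6 and 49.1 in qHF-SC, 40.3 and 31.6 in aHF-SC, and 34.2 and 39.6 in HF-TAC. Its groups overlapped, its log2 differences were -0.29, 0.04 and -0.24 (limma adjusted p = 0.509, 0.931 and 0.462), and 0 of its 4 probe sets passed.

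Of the SoxF genes, Sox7 was high in the matrix cells. It read 66.2 and 49.3 in qHF-SC, 49.6 and 71.7 in aHF-SC, and 488 and 237 in HF-TAC. The stem cell groups overlapped, and the HF-TAC arrays lay far above both but more than 2-fold apart from each other. The means were 57.8 ± 11.9 (SD, n = 2), 60.6 ± 15.6 (SD, n = 2) and 363 ± 177 (SD, n = 2). Sox7 was 5.71-fold higher in HF-TAC than in aHF-SC (log2 2.51 ± 0.36 SE, limma adjusted p = 0.00358) and 5.95-fold higher than in qHF-SC (log2 2.57 ± 0.36 SE, limma adjusted p = 0.00187). Between the stem cell groups the log2 difference was 0.06 (95% interval -0.77 to 0.89, limma adjusted p = 0.961). Both stem cell levels lay within the range that Ins2 reached, so the size of the rise in HF-TAC is uncertain.

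The Sox7 calls passed with any 1 array left out, at log2 1.99 to 3.03 against aHF-SC and 2.05 to 3.09 against qHF-SC. They rest on 1 of its 2 probe sets, 1416564_at. The other, 1432495_at, read 16.2 to 23.5 on all 6 arrays and did not pass (log2 -0.08 in HF-TAC against aHF-SC, limma adjusted p = 0.924). Averaged over both probe sets, the differences were log2 1.22 against aHF-SC (limma adjusted p = 0.0250) and 1.29 against qHF-SC (limma adjusted p = 0.0137). Sox18 read 18.4 and 14.5 in qHF-SC, 17.9 and 15.0 in aHF-SC, and 17.6 and 18.2 in HF-TAC, all at background.

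Since Sox7 and Sox18 are known from endothelium, and Sox2 from the dermal papilla and Merkel cells, markers of other skin cells were read on the same arrays. The summed intensity of 12 endothelial markers was 267 to 304 in qHF-SC, 294 to 295 in aHF-SC and 267 to 296 in HF-TAC, and 6 of the 12 lay at background in all groups, among them Pecam1, Tie1, Emcn, Cldn5 and Cdh5. The HF-TAC sums lay within the qHF-SC range, with 7 of the 12 markers at background in HF-TAC. Any endothelial part in the Sox7 values was not tested. Of single markers, 1 was higher in aHF-SC than in qHF-SC and lower again in HF-TAC: Tek, the angiopoietin receptor, with means of 8.05, 28.1 and 8.61. Its log2 differences were 1.79 (limma adjusted p = 0.00504) and -1.70 (limma adjusted p = 0.00152), and the first was lost without qHF-SC replicate 2 (limma adjusted p = 0.0534). Tek lay at background in qHF-SC and HF-TAC, and its aHF-SC mean lay below every Sry value. Its intensities moved in the same direction as Sox13 in both comparisons, and any part of Tek in that result was not tested. Cdh5 passed as lower in HF-TAC than in qHF-SC (limma adjusted p = 0.0461) with every group at background. It did not pass under either rescaling, with every probe set tested, under the replicate block or with any 1 array left out.

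Of 9 dermal papilla markers measured, 5 lay at background in all groups (Corin, Rspo3, Fgf7, Fgf10 and Alx4), and the sum was 205 to 266, 176 to 275 and 274 to 336 in qHF-SC, aHF-SC and HF-TAC. The hedgehog-binding gene Hhip was lower in HF-TAC than in aHF-SC (limma adjusted p = 0.00533) and qHF-SC (limma adjusted p = 0.000824), and the matrix proteoglycan gene Vcan was higher in HF-TAC than in qHF-SC (limma adjusted p = 0.0138), where it lay at background, a call lost when its probe sets were averaged, and without qHF-SC replicate 1 or 2 or HF-TAC replicate 2, with limma adjusted p of at most 0.0787. The 8 dermal fibroblast markers summed to 471 to 583, 423 to 697 and 3854 to 6369. That rise came from Dcn, the small proteoglycan decorin, with means of 22.7, 70.0 and 4786. Its log2 difference was 6.10 in HF-TAC against aHF-SC (limma adjusted p = 0.000207) and 7.73 against qHF-SC (limma adjusted p = 4.08e-05), or 3.16 and 3.89 averaged over its probe sets. In aHF-SC it was also 3.11-fold above qHF-SC (limma adjusted p = 0.0443). That call was lost when its probe sets were averaged (log2 0.73), under the replicate block and without any 1 array of the groups compared. Pdgfra, Lum and Dpt lay at background in every group, and Col1a2, a collagen I chain, was 3.32-fold lower in HF-TAC than in qHF-SC (limma adjusted p = 0.0194). The Col1a2 call was lost with the mean of its probe sets (log2 -0.94) and without qHF-SC replicate 1 or 2, with limma adjusted p of at most 0.117. Dcn moved with Sox7 and Sox21 in HF-TAC and with Sox4 and Sox13 in aHF-SC, and its part in those results was not tested.

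The Schwann cell markers, 6 of 8 measured, summed to 629 to 812 in qHF-SC, 781 to 937 in aHF-SC and 1292 to 1457 in HF-TAC, with Foxd3 at background. Erbb3, a neuregulin receptor, was 2.02-fold higher in HF-TAC than in aHF-SC (limma adjusted p = 0.0184), which was lost with the mean of its probe sets (log2 0.48) and without aHF-SC replicate 1 or HF-TAC replicate 1, with limma adjusted p of at most 0.0943. Against qHF-SC it was 2.34-fold higher in HF-TAC (limma adjusted p = 0.00559) and passed in every alternative run. Ngfr, the low-affinity nerve growth factor receptor, moved as Sox13 did, with means of 44.0, 126 and 41.9. It was higher in aHF-SC than in qHF-SC (limma adjusted p = 0.0167), a call lost without qHF-SC replicate 2 or either aHF-SC replicate (limma adjusted p of at most 0.0912), and lower in HF-TAC (limma adjusted p = 0.0054). Melanocyte markers, 8 of 8 measured, summed to 1815 to 1984, 469 to 550 and 635 to 978, and Mitf, their master regulator, fell 9.64-fold from qHF-SC to aHF-SC (limma adjusted p = 0.000589) and 2.04-fold further in HF-TAC (limma adjusted p = 0.00549), and was 19.7-fold lower in HF-TAC than in qHF-SC (limma adjusted p = 3.15e-05). Other melanocyte markers went the other way: 4 of the 8, Kit, Dct, Mlana and Tyr, were higher in HF-TAC than in qHF-SC, where 1, Mitf, was lower. The Mlana call was lost without qHF-SC replicate 1 or 2. The Tyr call was lost with the mean of its probe sets (log2 0.33) and without qHF-SC replicate 1 or 2 or HF-TAC replicate 2. Kit, the receptor for stem cell factor, read 185 in HF-TAC against a background level in both stem cell groups (limma adjusted p = 0.00215 against aHF-SC and 0.000973 against qHF-SC). Dct, an enzyme of melanin synthesis, was 3.69-fold higher in HF-TAC than in qHF-SC (limma adjusted p = 0.00171). These rises moved with Sox4, Sox7 and Sox21. Merkel cell markers, 7 of 7, summed to 170 to 243, 300.1 to 610 and 145 to 155, with Atoh1, Krt20, Isl1 and Rab3c at background and the keratin gene Krt8 6.53-fold lower in HF-TAC than in aHF-SC (limma adjusted p = 0.00657). Immune markers, 8 of 8, summed to 209 to 261, 189 to 206 and 240.4 to 240.6. Cd3g, a T cell receptor subunit, passed as lower in HF-TAC than in qHF-SC with every group at background (limma adjusted p = 0.0174), which was lost without qHF-SC replicate 1 or HF-TAC replicate 2 (limma adjusted p of at most 0.110). What part these cells have in the Sox values was not tested.

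**Figure D4:**
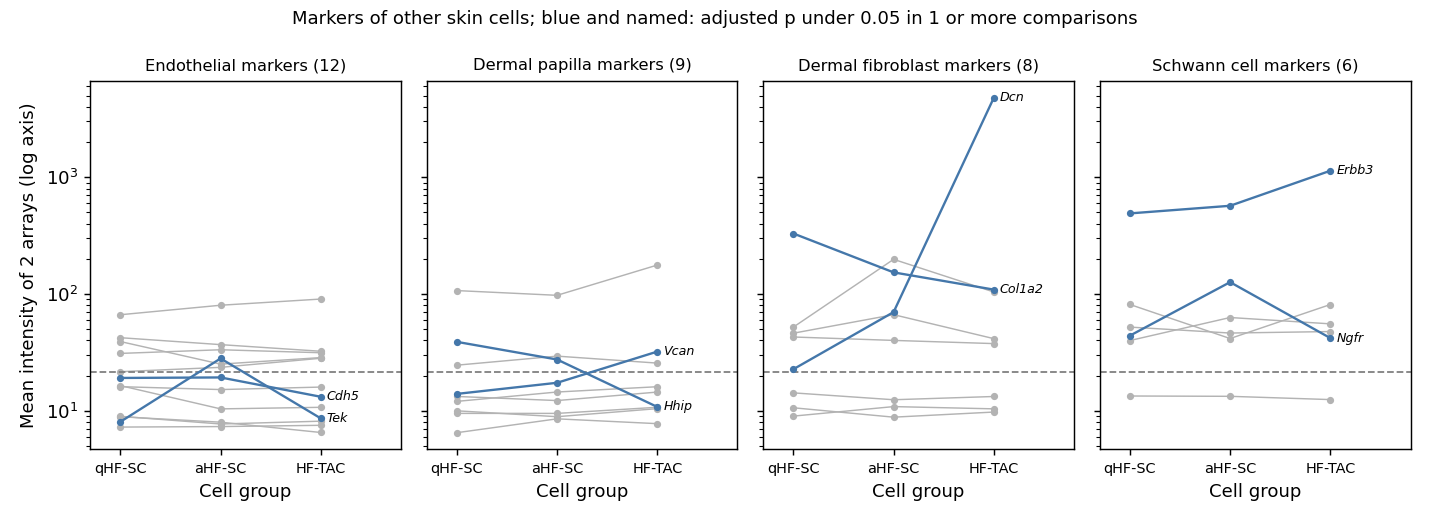
Group means of endothelial, dermal papilla, dermal fibroblast and Schwann markers, 1 line per gene, on a log axis, with genes past the threshold in at least 1 comparison named in blue. Tek and Ngfr peak in aHF-SC, and Dcn climbs from 22.7 to 4786 in HF-TAC.

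Markers of the labelled populations were read as well, from lists chosen with earlier results of these data known. Between the 2 stem cell groups, 1 of 8 bulge genes and 0 of 8 matrix genes passed, so these 2 lists hardly set those groups apart. Bulge stem cell genes, 8 of 8 measured, were all lower in HF-TAC than in aHF-SC, led by Cd34, which is also a sorting marker (2817 in aHF-SC and background in HF-TAC, limma adjusted p = 0.000111), the transcription factor gene Tbx1 (10.5-fold, limma adjusted p = 0.000417) and the R-spondin receptor gene Lgr5 (8.29-fold, limma adjusted p = 0.000592). Of 8 matrix genes, 6 were higher there, led by the hedgehog ligand gene Shh (27.0-fold, limma adjusted p = 0.000258), Lef1 and the homeobox gene Msx2 (8.47-fold, limma adjusted p = 0.00147). Between aHF-SC and qHF-SC, 1 bulge gene passed, Cd34, lower in aHF-SC (2.82-fold, limma adjusted p = 0.0259), a call lost without any 1 array of these groups (limma adjusted p of at most 0.169). Of 7 division genes, 6 were higher in aHF-SC than in qHF-SC, led by Ccnb2, Birc5 and Cdc20. Of these 6 calls, only those of Ccnb2 and Cdc20 passed in every alternative run. All 7 were higher in HF-TAC than in aHF-SC, led by Aurkb, Mki67 (limma adjusted p of at most 0.147 without aHF-SC replicate 2 or either HF-TAC replicate) and Top2a, with median intensities of 30.0, 241 and 1214. The division genes thus rose between the same groups as Sox4 and Sox13 in aHF-SC and as Sox7 and Sox21 in HF-TAC. Between HF-TAC and aHF-SC, where the division genes rose, Sox13 fell and Sox4 did not pass. Whether division bears on the Sox genes was not tested.

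The 10 remaining Sox genes on the array were read beside the members, and 1 of them passed. Sox9, the stem cell factor of the bulge, read 1798 and 1270 in qHF-SC, 1373 and 1859 in aHF-SC, and 515 and 467 in HF-TAC, so HF-TAC was lowest for Sox9 where it was highest for Sox7 and Sox21. It was 3.26-fold lower in HF-TAC than in aHF-SC (limma adjusted p = 0.00286) and 3.08-fold lower than in qHF-SC (limma adjusted p = 0.00198). Sox3, Sox8 and Sox30 lay at background in all groups. Group means of Sox1, Sox10, Sox14, Sox15, Sox17 and Sry lay between 24.0 and 64.3, no higher than the levels seen in genes of other organs.

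Genes linked to SoxC factors in other tissues did not all move together, and 3 of the 7 lay at background in every group. Of 7, 1 was higher in aHF-SC than in qHF-SC, 2 in HF-TAC than in aHF-SC and 1 in HF-TAC than in qHF-SC, and 0 were lower. Marcksl1, a regulator of the actin cytoskeleton, rose with Sox4 in aHF-SC, from 1557 ± 847 (SD, n = 2) to 4232 ± 350.3 (SD, n = 2), 2.94-fold (limma adjusted p = 0.0430), and stood at 2983 ± 67.8 (SD, n = 2) in HF-TAC. Its call was lost when any array other than qHF-SC replicate 1 was left out, with limma adjusted p of at most 0.174. Ezh2, the histone methyltransferase of Polycomb, had means of 165, 190 and 686 in qHF-SC, aHF-SC and HF-TAC. It did not pass between the stem cell groups (limma adjusted p = 0.802) and was 3.68-fold higher in HF-TAC than in aHF-SC (limma adjusted p = 0.00469) and 4.20-fold higher than in qHF-SC (limma adjusted p = 0.00188). Tubb3, a neuronal tubulin, passed between HF-TAC and aHF-SC (limma adjusted p = 0.0437) with every group at background. Its call was lost in 5 of the 6 fits that left out an array, HF-TAC replicate 1 being the exception. It was also lost with every probe set tested and under the replicate block.

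The cartilage genes that Sox9, Sox5 and Sox6 drive in chondrocytes, 8 of 8 measured, had 0 calls in all 3 comparisons, and 4 of the 8 lay at background in every group. Hair shaft cuticle keratins, the tissue in which Sox21 acts, had 3 of 6 members measured. Of these, Krt35 read 12.0 and 16.2 in qHF-SC, 98.6 and 201 in aHF-SC, and 3528 and 8535 in HF-TAC. It was thus higher in HF-TAC than in aHF-SC by 39.0-fold (limma adjusted p = 0.000687). It also rose in aHF-SC from a background level (limma adjusted p = 0.0118), which was lost without qHF-SC replicate 1 or 2 (limma adjusted p of at most 0.0671). Krt32 did not pass in any comparison, and Krt82 lay at background in every group.

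Of 12 genes for Sox partners and regulators on the Wnt side, 10 were measured, and 3 passed in HF-TAC against aHF-SC, all of them Tcf/Lef genes, whose products are HMG-box factors too. Lef1, which acts with β-catenin, rose with Sox7 and Sox21: it was 12.7-fold higher in HF-TAC than in aHF-SC (limma adjusted p = 0.00041) and 15.3-fold higher than in qHF-SC (limma adjusted p = 0.000123). Tcf7l1, a repressor of Wnt targets in stem cells, was 3.61-fold lower in HF-TAC than in aHF-SC (limma adjusted p = 0.00398). Tcf7l2 was 2.82-fold lower in HF-TAC than in aHF-SC (limma adjusted p = 0.00677, 0.0508 without aHF-SC replicate 2) and 2.32-fold lower than in qHF-SC (limma adjusted p = 0.0106, 0.0718 without qHF-SC replicate 1). Ctbp2, a corepressor, was 2.42-fold higher in aHF-SC than in qHF-SC (limma adjusted p = 0.0416). That call was lost under the replicate block and without any 1 array of the 2 groups. In HF-TAC against qHF-SC, 2 were higher and 2 lower, among them the corepressor gene Tle4, 2.15-fold lower (limma adjusted p = 0.0111, 0.0755 without qHF-SC replicate 2).

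For each member that passed, genes were ranked by how closely their log2 intensities followed it over the 6 arrays. The ranking used Pearson's r among 5382 genes with a log2 span of at least 1. This is a description, since the 6 arrays are 3 groups of 2 and any gene with the same group pattern ranks high. Closest to Sox4 were Lhfp (0.996), Ttyh2 (0.995) and Pgp (0.994), and 106 genes had an r above 0.95. Closest to Sox7 were Plet1 (0.998), Rel (0.996) and 9530036O11Rik (0.995), with 121 genes above 0.95. Closest to Sox21 were Grhl1 (0.998), Pkig (0.996) and Cenpo (0.995), with 337 genes above 0.95. The Sox13 pattern was the least shared by this count, with 17 genes above 0.95, led by Olfml2b (0.986), Ccdc8 (0.978) and Naglu (0.974). Sox7 and Sox21 correlated at r = 0.932 over the same arrays.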

How the data were processed

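RNA of 3 sorted cell groups was measured on 6 Affymetrix arrays. The authors deposited intensity values per probe set on a linear scale, and RMA (background correction, quantile normalisation and summary over probes) is named, with no version or role, per the submitters' processing notes. RMA compresses large and dim differences and assumes similar RNA distributions between groups. For the chip definition and the software, the sources used here give none. Array medians lay between 22.8 and 24.0. For arrays, their number limits the precision.

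Intensities were put on the log2 scale. Of 45101 probe sets, 64 controls were left out, 34945 carried 1 symbol, 932 several and 9160 none. The Entrez identifiers of 34741 of those with 1 symbol were found in the RefSeq gene table, and 0 symbols were updated. The 10 members have 35 of the 45037 probe sets tested singly, and 20 of the 35 had every group mean at background. A gene was tested through its probe set with the highest mean over the 6 arrays; 9010 of 18193 genes had 2 or more. All groups entered 1 fit of group means in limma 3.58.1 (lmFit, contrasts.fit, eBayes; R 4.3.3), with 3 residual and 4.25 prior degrees of freedom, two-sided tests and Benjamini-Hochberg adjustment within each comparison. On simulated data with 200 of 18193 genes changed, the fit for aHF-SC against qHF-SC recovered 24% of 2-fold and 91% of 4-fold changes.

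The rule for named genes took all members, up to 3 passing genes with the largest change per other list and comparison, every listed Sox gene, and the 3 closest pattern neighbours of each member that passed. For bulge, matrix and division genes it was followed in the comparisons the text describes. Mlana and Tyr, and genes named beside a list as lying at background or not passing, were named after their values were seen. The members and lists were chosen with earlier results of these data known. Alternatives were the mean of probe sets, every probe set, no probe sets ending in _s_at or _x_at, only genes with a mean above background, a variance trend, 75th percentile scaling, quantile normalisation, the replicate number as a block and leaving out each array. Promoter windows come from RefSeq; 8 of 10 members matched.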

Additional observations from a re-analysis of the deposited data

How the results depend on the processing

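Of the 8 differences of Sox genes that passed, those of Sox7, Sox21 and Sox4 (HF-TAC against qHF-SC) passed in every alternative run. The calls lost in an alternative were those of Sox13 and that of Sox4 in aHF-SC against qHF-SC. Most of these losses came from leaving out an array of the groups compared. Leaving out an array of the remaining group cannot change a difference, so such fits say little about its stability. Deviations of same-numbered arrays correlated over all genes at 0.06, 0.08 and -0.13, which shows no broad pairing by replicate number. A pairing that affects few genes cannot be seen by this check. Under a replicate block, 1 instead of 2 Sox genes passed in aHF-SC against qHF-SC, Sox4 being lost (limma adjusted p = 0.0611), and no other call of a member changed. With 1 array left out, 0 to 2 passed there. Testing every probe set, 2259, 5157 and 9062 passed, against 1142, 3191 and 4790 genes, as more features were tested. With 1 array left out, all genes past the threshold ranged from 124 (without qHF-SC replicate 2) to 1354 in aHF-SC against qHF-SC, where leaving out qHF-SC replicate 1, aHF-SC replicate 1 or aHF-SC replicate 2 gave 637, 303 and 475. They ranged from 1643 (without aHF-SC replicate 2) to 2786 in HF-TAC against aHF-SC, and from 2893 (without qHF-SC replicate 2) to 4588 in HF-TAC against qHF-SC, where leaving out qHF-SC replicate 1 gave 3192.

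Of 411 values of members under alternatives, 26 changed sign, 0 of them where a difference passed, and the cause was not tested. With the mean of probe sets, Sox11 was at log2 -0.013 in aHF-SC and -0.025 in HF-TAC against qHF-SC; with quantile normalisation, Sox12 was at -0.0010 in aHF-SC against qHF-SC. With 1 array left out, the log2 ranges in aHF-SC against qHF-SC were -0.17 to 0.34 for Sox11, -0.21 to 0.25 for Sox12, -0.16 to 0.18 for Sox18, -0.47 to 0.22 for Sox2, -0.094 to 0.52 for Sox21 and -0.21 to 0.33 for Sox7. In HF-TAC against aHF-SC they were -0.30 to 0.21 for Sox11, -0.12 to 0.33 for Sox12, -0.0024 to 0.25 for Sox18, -0.44 to 0.24 for Sox2, -0.025 to 0.65 for Sox4 and -0.13 to 0.22 for Sox6. In HF-TAC against qHF-SC they were -0.026 to 0.10 for Sox11, -0.032 to 0.28 for Sox12 and -0.035 to 0.31 for Sox18. Of 85 passing differences of listed genes followed the same way, 60 passed in every alternative and 0 changed sign. With 2 arrays a group, small differences and those of dim probe sets are hard to detect, and a low intensity does not show that a transcript was absent.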
